A study of Mus musculus with 16 samples.

Results

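The 52 genes described here encode remodellers of chromatin and enzymes that write or erase methyl groups on histones, measured by microarray in the lung of wildtype and adiponectin-deficient mice after room air or ozone. They were taken by name, as Atrx and all genes whose symbol starts with Kdm, Kmt, Chd, Setd, Smarc or Arid, and make up 52 of the 12393 genes that had a probe set (a group of probes read as 1 value) with 1 gene symbol. The Y-linked Kdm5d was left out by the rule. By role, 13 members are ATPases of the SNF2 type, 8 are accessory subunits of SWI/SNF complexes, 5 are other ARID proteins, 12 are Kdm demethylases and 13 are Kmt or Setd methyltransferases. The remaining member, Chdh, is choline dehydrogenase of mitochondria and entered only through its spelling. The family was selected on the wildtype ozone comparison, in which Atrx and Kdm5a had been seen among the largest falls. Values of that comparison are therefore a description here and carry no test.

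Each of the 16 arrays held RNA from the left lung of 1 mouse, and 4 groups of 4 mice each held 2 males and 2 females, called M1, M2, F1 and F2. All mice had the background strain C57BL/6 and a mean age of 14 weeks, and were either wild type or genetically deficient in adiponectin, a hormone of fat cells. Exposure was to room air or to ozone, an oxidant gas, at 0.3 ppm, and lasted 72 h, and lungs were taken straight after exposure. The allele of the deficient mice and whether wildtype mice were littermates are, in the sources used here, not given. Levels are log2 intensities, and a difference of 1 is a doubling. Differences are log2 fold changes ± SE from 1 limma fit over all 16 arrays (n = 4 per group), and genes with an adjusted p (Benjamini-Hochberg, over all 12393 genes) under 0.05 count as called. A level was never compared between probe sets, and for a gene with several the brightest was used.

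Nucleosomes, the spools of histone proteins that DNA is wound on, block many factors from reaching DNA. Remodellers of the SNF2 type burn ATP to slide, eject or exchange nucleosomes, and fall into the SWI/SNF, ISWI and CHD families and relatives such as Atrx, which places a histone variant at repeats. Histone methyltransferases of the Kmt and Setd families mark lysines of histone tails, and Kdm demethylases take the marks off again, so that both groups set which promoters and enhancers can be used. In the lung, SWI/SNF genes are known as targets of mutation in tumours, and the demethylases of the Kdm6 type as regulators of inflammatory genes.

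Promoter sequence was looked up for the members in RefSeq (GRCm38.p6), which gave 59 start sites for 43 of the 52 members. Of these, 5 are shown because the results below turn on these genes: Atrx and Arid5b were lower after ozone, Arid5a and Smarca4 were higher, and Kdm6a differed most between the sexes. Each run holds the 150 bases before the annotated start, read 5′ to 3′ on the gene's own strand. Capitals mark GC boxes (GGGCGG or its complement CCGCCC) and CCAAT boxes (CCAAT or its complement ATTGG). Atrx lies at chrX:105929373-105929522 (minus strand), Arid5b at chr10:68278727-68278876 (minus strand), Arid5a at chr1:36307583-36307732 (plus strand), Smarca4 at chr9:21616019-21616168 (plus strand) and Kdm6a at chrX:18162425-18162574 (plus strand).
Atrx: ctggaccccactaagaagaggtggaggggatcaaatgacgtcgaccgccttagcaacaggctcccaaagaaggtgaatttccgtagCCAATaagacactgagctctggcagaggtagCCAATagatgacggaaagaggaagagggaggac
Arid5b: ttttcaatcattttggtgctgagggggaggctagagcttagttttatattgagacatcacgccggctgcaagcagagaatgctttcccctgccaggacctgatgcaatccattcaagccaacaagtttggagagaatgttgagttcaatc
Arid5a: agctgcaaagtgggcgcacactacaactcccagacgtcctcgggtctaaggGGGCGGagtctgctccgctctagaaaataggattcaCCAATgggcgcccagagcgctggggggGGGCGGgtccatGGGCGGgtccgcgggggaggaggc
Smarca4: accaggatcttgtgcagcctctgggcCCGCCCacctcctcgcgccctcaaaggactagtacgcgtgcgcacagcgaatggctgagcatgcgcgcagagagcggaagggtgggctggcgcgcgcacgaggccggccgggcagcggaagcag
Kdm6a: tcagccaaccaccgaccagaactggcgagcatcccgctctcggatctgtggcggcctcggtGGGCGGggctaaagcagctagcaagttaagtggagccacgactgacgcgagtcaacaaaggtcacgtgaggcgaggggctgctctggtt

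The Atrx run held 2 CCAAT boxes and no GC box, and the Arid5b run held neither motif. Arid5a carried 3 GC boxes and 1 CCAAT box, while Smarca4 and Kdm6a carried 1 GC box each. Arid5b had 2 CpG dinucleotides in its 150 bases, Atrx 5, Arid5a 11, Kdm6a 12 and Smarca4 17. Over the 250 bases before each start, on both strands, a GC box stood in 40 of the 59 member promoters (67.8%) and in 10756 of 32851 reference promoters (32.7%). These 32851 are all promoters in the reference and were not limited to genes measured on the arrays. A CCAAT box stood in 39.0% against 33.8%, and the letters TATAAA or TTTATA in 3.39% against 12.4%. Member promoters had a median GC content of 61.6% and 20 CpG dinucleotides, against 52.4% and 6 for all promoters. These are matches of letters, and no binding was measured.

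Adipoq, the gene of adiponectin, was read first as a check of the labels. Its level was 7.19 to 11.52 in wildtype air, 7.70 to 8.76 in wildtype ozone and 6.07 to 6.36 in deficient ozone. Of the deficient air arrays 3 read 6.32 to 6.97, and the array labelled deficient air F2 read 8.82, within the wildtype range. That array and wildtype air F1 carried the brown fat gene Ucp1 at 7.27 and 7.25 against 4.62 to 5.18 elsewhere. Deficient air M2 carried muscle and squamous markers, and these 3 arrays, called the mixed-tissue arrays here, are left out together in an alternative fit. Wildtype ozone M2 read neutrophil markers at a mean of 11.59 against at most 8.95 elsewhere, and 1 free-text field of wildtype ozone F1 names room air while its other fields name ozone. Lung epithelial markers averaged 12.78 to 13.17 on every array. Array medians lay between 146 and 154 in intensity. Precision is limited by how few arrays each group has.

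Wildtype lung had members both higher and lower after ozone than in room air. Of the 52, 11 were called higher (21.2%, against 19.6% of all genes) and 16 lower (30.8%, against 17.1%). Groups did not overlap for 7 higher members (13.5%, against 17.1% of all genes) and 13 lower ones (25.0%, against 14.2%). Since this comparison proposed the family, nothing is read from these shares. The members' median log2 fold change was -0.05, against 0.03 for all genes.

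In adiponectin-deficient lung, whose arrays are not shared with the wildtype comparison, 8 of the 52 members rose after ozone (15.4%) and 15 fell (28.8%). Over all genes 15.8% rose and 14.6% fell, so the share of rising members was near the background and the share of falling members was above it. The 4 ozone values lay above all 4 air values for 5 members (9.62%, against 15.4% of all genes) and below them for 12 (23.1%, against 13.3%). Atrx and Kdm5a, whose wildtype falls proposed the family, are among both the 15 and the 12. The fit also took its spread and sex term from all 16 arrays. These shares are therefore not independent of how the family was chosen. The members' median was -0.03, against 0.01 for all genes. Of the wildtype calls, 7 of 11 higher (63.6%) and 13 of 16 lower (81.2%) were also called in deficient lung, which is 87.5% and 86.7% of the deficient calls. For all genes these shares were 63.0% and 69.2% of the wildtype calls and 78.4% and 81.0% of the deficient ones. No member was called in opposite directions in the 2 genotypes. RNA came from whole lung, so fewer cells of a type and less RNA per cell cannot be told apart.

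**Figure D1:**
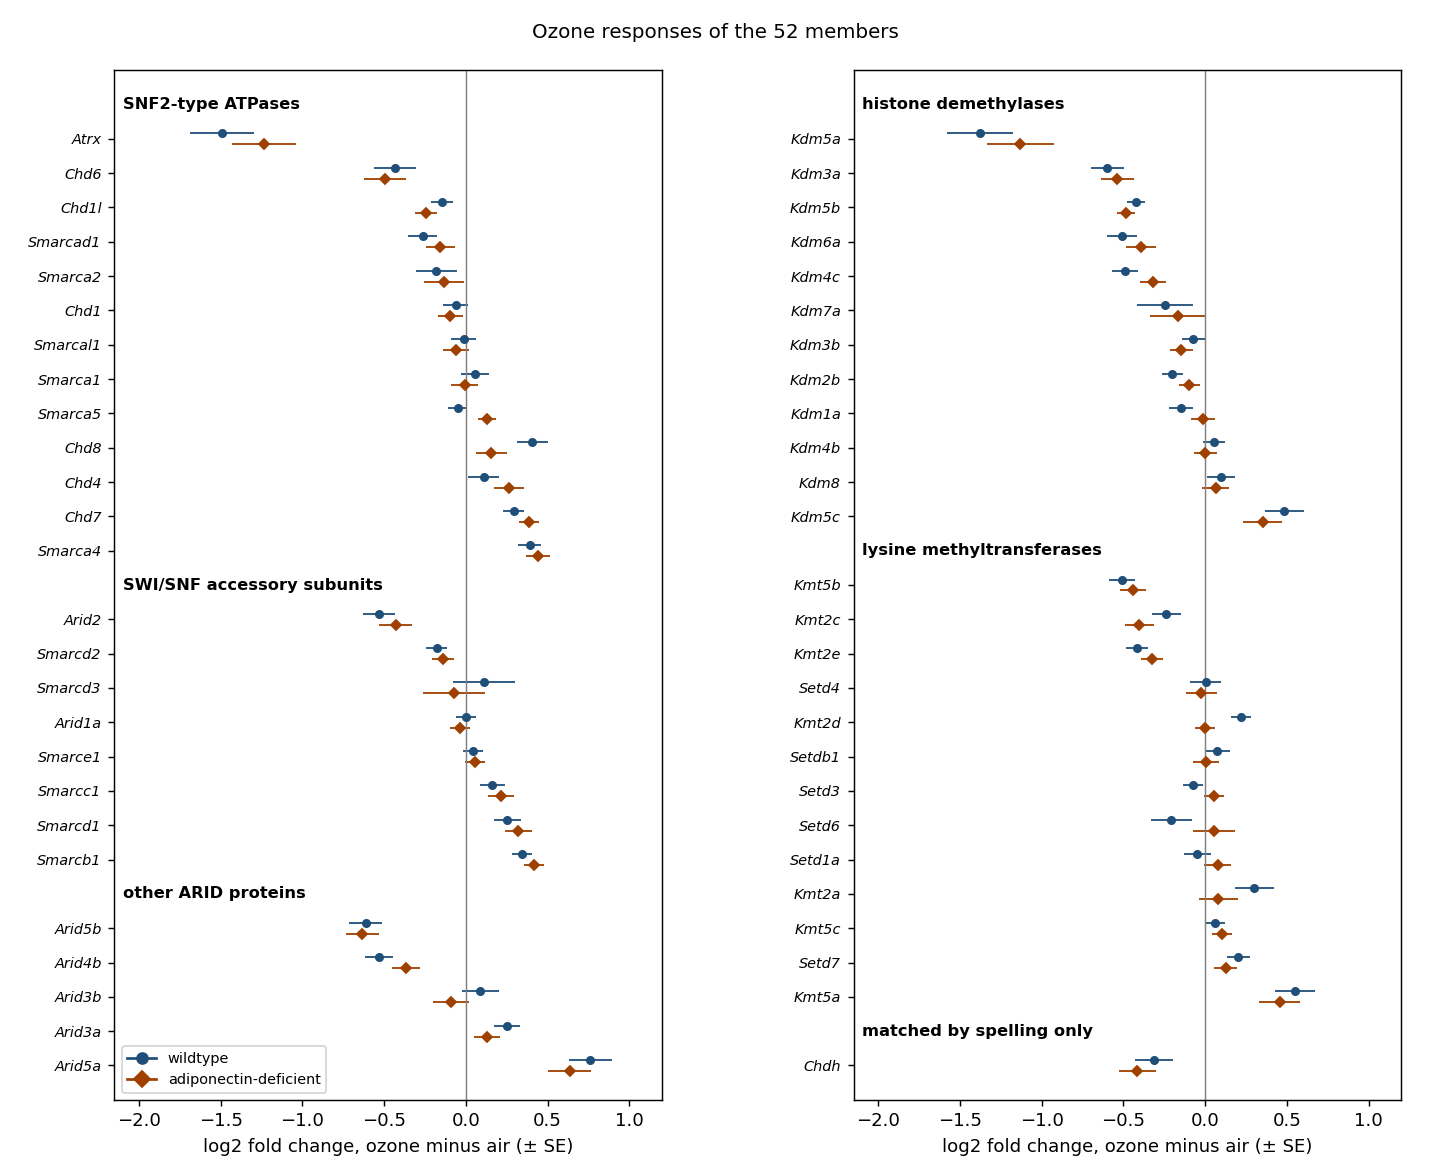
Log2 fold change (ozone minus air, horizontal axis) of all 52 members in wildtype (blue circles) and adiponectin-deficient lung (orange diamonds), ± SE of the fit, ordered within each role by the deficient value. Atrx and Kdm5a lie farthest left, at -1.23 and -1.13 in deficient lung, and Arid5a farthest right at 0.64.

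Among the SNF2-type ATPases, Atrx, Chd6 and Chd1l fell in deficient lung and Smarca4, Chd7 and Chd4 rose, with 7 of the 13 not called, where 14.6% of all genes fell and 15.8% rose. Atrx, which with Daxx deposits histone H3.3 at telomeres and other repeats, had the largest fall of any member. In room air its level was 8.25, 7.92, 8.52 and 8.11 in wildtype lung (M1, M2, F1, F2, the order used throughout) and 7.86, 7.61, 8.44 and 8.26 in deficient lung. After ozone it was 6.46, 6.58, 6.75 and 7.04 in wildtype and 7.05, 6.85, 7.11 and 6.22 in deficient lung. Every ozone array read below every air array, and deficient ozone F2 was the lowest of all. Atrx fell by 1.23 ± 0.19 (adjusted p = 0.000261) in deficient lung, a 2.35-fold lower level, and its log2 fold change in wildtype lung was -1.49 ± 0.19.

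Smarca4, the ATPase BRG1 of SWI/SNF, went the other way. Its air levels were 9.14, 9.30, 9.53 and 9.39 in wildtype and 9.24, 9.38, 9.54 and 9.25 in deficient lung, and its ozone levels 9.73, 9.65, 9.74 and 9.79 and 9.66, 9.78, 9.84 and 9.90. All 8 ozone arrays read above all 8 air arrays. Smarca4 rose by 0.44 ± 0.07 (adjusted p = 0.000341) in deficient lung, a 1.36-fold higher level, and its wildtype log2 fold change was 0.39 ± 0.07. The rise rests on its brightest probe set: the mean of both probe sets gave 0.24 (adjusted p = 0.0514). Smarca2, the alternative SWI/SNF motor BRM, was not called in deficient lung (-0.13 ± 0.12, adjusted p = 0.459), with air levels of 9.58, 9.52, 9.64 and 9.56 and ozone levels of 9.56, 9.18, 9.58 and 9.44.

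Chd7, a CHD remodeller known at enhancers of developing tissues, read 5.15, 5.42, 5.48 and 5.43 on the air arrays of deficient lung and 5.81, 5.67, 5.74 and 5.81 on its ozone arrays. Its groups did not overlap, and it rose by 0.39 ± 0.06 (adjusted p = 0.000365). The wildtype levels were 5.41, 5.44, 5.50 and 5.48 in air and 5.71, 5.74, 5.85 and 5.70 in ozone, a log2 fold change of 0.29 ± 0.06. All these levels are low: the muscle gene Acta1 read 5.75 to 6.19 on the ozone arrays. How far Chd7 stood above background is unknown. Chd1l, a remodeller recruited by poly(ADP-ribose) at damaged DNA, read 8.37, 8.30, 8.47 and 8.32 on the deficient air arrays and 8.15, 8.14, 8.10 and 8.11 on the deficient ozone arrays, again without overlap. It fell by 0.24 ± 0.07 (adjusted p = 0.0108), and its wildtype value was -0.15 ± 0.07.

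Chd4, the motor of the NuRD complex, which joins remodelling with histone deacetylation, was called narrowly. Its levels were 8.88, 8.91, 9.11 and 9.03 on the deficient air arrays and 9.06, 9.22, 9.30 and 9.40 on the deficient ozone arrays, and the groups overlapped. Chd4 rose by 0.26 ± 0.09 (adjusted p = 0.0448), but no longer passed on leaving out wildtype air M1, wildtype ozone M1, any of the 4 deficient air arrays, or deficient ozone M2, F1 or F2 (adjusted p = 0.0538 to 0.121). It was also lost without the 3 mixed-tissue arrays (0.25, adjusted p = 0.160). Smarca5, the ISWI motor SNF2H, was not called in either genotype, at -0.05 ± 0.06 in wildtype and 0.13 ± 0.06 in deficient lung. Chd6 fell by 0.50 ± 0.13 (adjusted p = 0.00857) in deficient lung with overlapping groups.

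**Figure D2:**
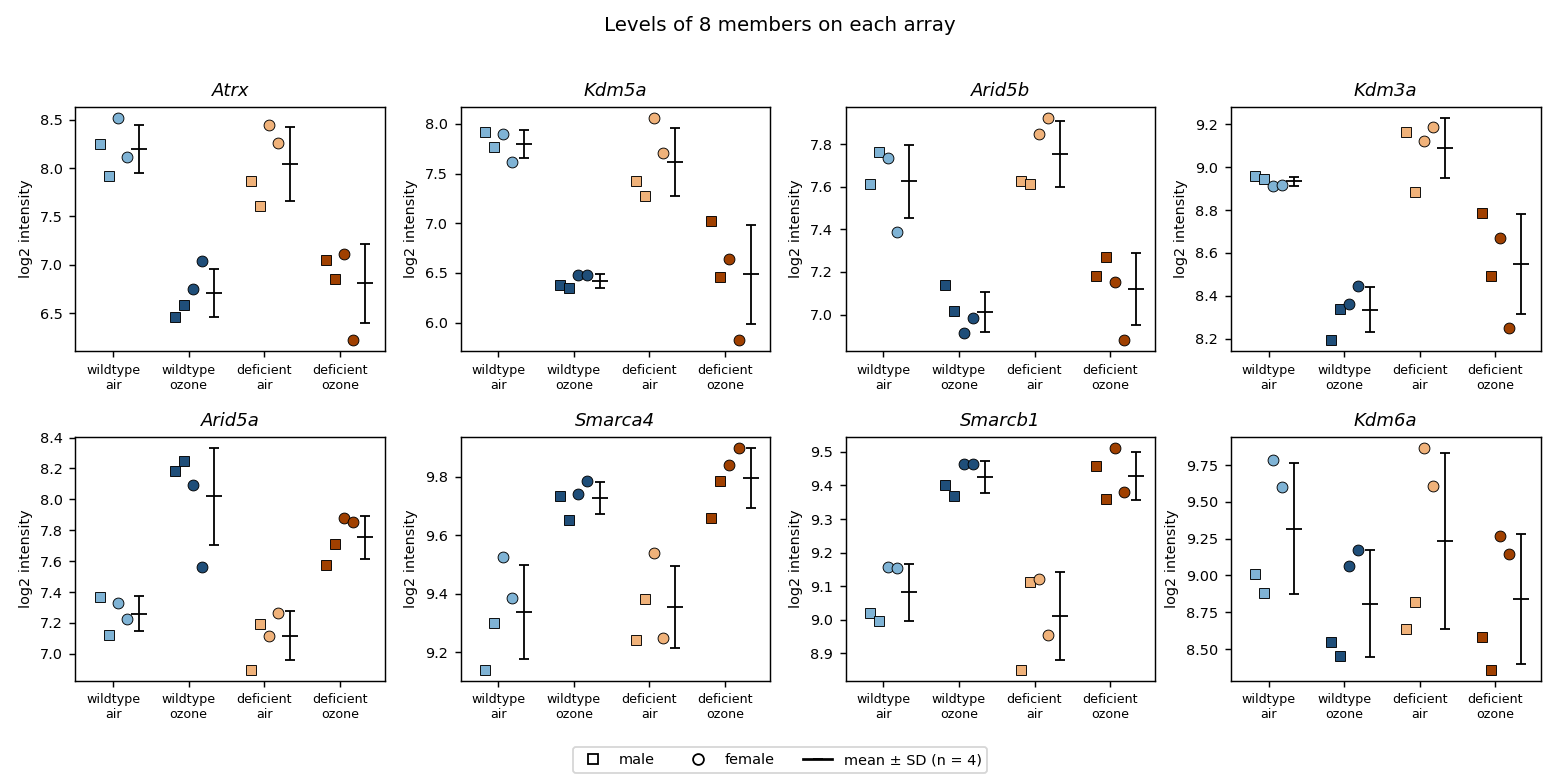
Log2 intensity (vertical axis, a separate scale for each gene) of 8 members on each of the 16 arrays, with squares for males, circles for females and bars for the group mean ± SD (n = 4). For Atrx, Kdm5a, Arid5b and Kdm3a every ozone array lies below the air arrays of its genotype, and for Arid5a, Smarca4 and Smarcb1 above them; Kdm6a separates by sex within each group.

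Of the 8 SWI/SNF accessory subunits, Smarcb1 and Smarcd1 rose in deficient lung, Arid2 fell and 5 were not called, beside the same shares of all genes (15.8% and 14.6%). Smarcb1, a core subunit also known as SNF5 and a tumour suppressor, read 8.85, 9.11, 9.12 and 8.96 in deficient lung after air and 9.46, 9.36, 9.51 and 9.38 after ozone. In wildtype lung it read 9.02, 8.997, 9.16 and 9.15 in air and 9.40, 9.37, 9.46 and 9.46 in ozone. No ozone array overlapped an air array. Smarcb1 rose by 0.42 ± 0.06 (adjusted p = 0.00019) in deficient lung and its wildtype log2 fold change was 0.34 ± 0.06; the mean of its probe sets gave 0.26 in deficient lung (adjusted p = 0.00125). Smarcd1, which links the complex to transcription factors, read 7.59, 7.76, 7.77 and 7.57 on the deficient air arrays and 7.85, 7.89, 8.04 and 8.19 on the deficient ozone arrays and rose by 0.32 ± 0.08 (adjusted p = 0.00762). The dimmer probe sets of Smarcb1 and Smarcd1 were not called in deficient lung, at 0.11 and 0.13.

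Arid2, the ARID subunit of the PBAF form of SWI/SNF, fell while those subunits rose. Its deficient levels were 10.06, 9.84, 10.21 and 9.92 in air and 9.56, 9.65, 9.54 and 9.57 in ozone, and its wildtype levels 9.90, 9.92, 9.89 and 9.95 and 9.20, 9.22, 9.36 and 9.76. The groups did not overlap in either genotype, although wildtype ozone F2 lay nearer to the air arrays than the other 3. Arid2 fell by 0.43 ± 0.10 (adjusted p = 0.00413) in deficient lung, beside -0.53 ± 0.10 in wildtype lung. Smarcd2, a Smarcd1 relative known for its part in granulocyte maturation, was not called in deficient lung (-0.14 ± 0.07, adjusted p = 0.127). It was called lower without the 3 mixed-tissue arrays (-0.24, adjusted p = 0.0128) and with array weights (-0.17, adjusted p = 0.0389).

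The other ARID proteins held the largest rise and another large fall. Arid5a, an RNA-binding protein known to stabilise Il6 mRNA, read 6.90, 7.20, 7.12 and 7.26 in deficient lung after air and 7.57, 7.71, 7.88 and 7.85 after ozone. Its wildtype levels were 7.37, 7.12, 7.33 and 7.22 in air and 8.18, 8.25, 8.09 and 7.56 in ozone, where F2 was the lowest of the 4. The groups did not overlap in either genotype. Arid5a rose by 0.64 ± 0.13 (adjusted p = 0.002) in deficient lung, 1.55-fold, and its wildtype log2 fold change was 0.76 ± 0.13.

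Arid5b, a partner of the demethylase Phf2 with a part in fat cell formation, read 7.63, 7.62, 7.85 and 7.92 in deficient lung after air and 7.18, 7.27, 7.15 and 6.88 after ozone. In wildtype lung it read 7.61, 7.76, 7.74 and 7.39 in air and 7.14, 7.02, 6.92 and 6.98 in ozone. All ozone arrays lay below all air arrays. Arid5b fell by 0.63 ± 0.10 (adjusted p = 0.000305) in deficient lung, a 1.55-fold lower level, and was at -0.61 ± 0.10 in wildtype lung. The mean of its 2 probe sets gave -0.25 in deficient lung (adjusted p = 0.00824), and the dimmer one alone was not called (0.13 ± 0.07, adjusted p = 0.16). Arid4b also fell in deficient lung, and Arid3a and Arid3b were not called there.

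Of the 12 demethylases, 5 fell in deficient lung (against 14.6% of all genes), 1 rose (against 15.8%) and 6 were not called, with a median of -0.16. Kdm5a, which removes methyl groups from lysine 4 of histone H3 at promoters, had the second largest fall of all members. In room air it read 7.92, 7.77, 7.90 and 7.62 in wildtype and 7.43, 7.28, 8.06 and 7.71 in deficient lung. After ozone it read 6.38, 6.35, 6.48 and 6.48 and 7.02, 6.46, 6.64 and 5.82. Ozone arrays lay below air arrays throughout, tightly in wildtype lung and with a wide spread in deficient lung, where F2 was again the lowest. Kdm5a fell by 1.13 ± 0.20 (adjusted p = 0.000688) in deficient lung, 2.19-fold lower, beside -1.38 ± 0.20 in wildtype lung.

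Its relative Kdm5b read 8.57, 8.66, 8.67 and 8.63 on the deficient air arrays and 8.14, 8.07, 8.20 and 8.19 on the deficient ozone arrays. The groups lay well apart. Kdm5b fell by 0.48 ± 0.06 (adjusted p = 2.06e-05), the smallest adjusted p of any member, and its wildtype value was -0.42 ± 0.06. Its dimmer probe set was not called in deficient lung (-0.22). Kdm3a, a demethylase of lysine 9 of histone H3 that hypoxia is known to induce, read 9.16, 8.88, 9.12 and 9.19 on the deficient air arrays and 8.78, 8.49, 8.67 and 8.25 on the deficient ozone arrays. It fell by 0.54 ± 0.10 (adjusted p = 0.000948) without overlap and stood at -0.60 ± 0.10 in wildtype lung. Kdm4c fell as well. Kdm1a, the flavin-dependent demethylase LSD1, was not called in either genotype, at -0.15 ± 0.07 in wildtype and -0.01 ± 0.07 in deficient lung.

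The X-linked demethylases Kdm6a and Kdm5c moved in opposite directions in deficient lung on their brightest probe sets only. Their dimmer probe sets were not called there, at -0.19 for Kdm6a and -0.27 for Kdm5c. Kdm6a, also called UTX, acts on lysine 27 of histone H3. It read 8.64, 8.82, 9.87 and 9.61 on the deficient air arrays and 8.58, 8.36, 9.27 and 9.15 on the deficient ozone arrays, and females read higher than males in both groups, which overlapped. With sex in the model Kdm6a fell by 0.39 ± 0.09 (adjusted p = 0.00428). Without it the size was the same, -0.39, but the call was lost (adjusted p = 0.355). Kdm5c, a demethylase of lysine 4, read 5.75, 6.03, 6.37 and 6.21 in deficient lung after air and 5.93, 6.21, 6.64 and 6.98 after ozone. Kdm5c rose by 0.35 ± 0.12 (adjusted p = 0.0365), a call that was lost without deficient air M1, F1 or F2 or deficient ozone M2, F1 or F2 (adjusted p = 0.0529 to 0.139). It was also lost without a sex term (0.35, adjusted p = 0.266), without the 3 mixed-tissue arrays (0.39, adjusted p = 0.0750) and with the mean of its probe sets (0.04, adjusted p = 0.776).

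Of the 13 methyltransferases, Kmt5b, Kmt2c and Kmt2e fell in deficient lung, Kmt5a rose and 9 were not called, where 14.6% of all genes fell and 15.8% rose. Kmt5b, which adds further methyl groups to lysine 20 of histone H4, read 8.78, 8.69, 8.82 and 8.54 in deficient lung after air and 8.20, 8.21, 8.35 and 8.30 after ozone. It fell by 0.44 ± 0.08 (adjusted p = 0.00076) without overlap and stood at -0.51 ± 0.08 in wildtype lung. It fell less with the mean of its 4 probe sets (-0.19, adjusted p = 0.00615), of which only the brightest was called in deficient lung. Kmt5a, which lays the first methyl group on the same lysine and peaks in dividing cells, rose by 0.46 ± 0.12 (adjusted p = 0.0114) in deficient lung and stood at 0.55 ± 0.12 in wildtype lung.

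Kmt2c, a methyltransferase of enhancers, read 8.01, 8.01, 8.31 and 8.05 on the deficient air arrays and 7.58, 7.68, 7.96 and 7.54 on the deficient ozone arrays, where F1 was the highest array in both groups. It fell by 0.40 ± 0.09 (adjusted p = 0.0036) without overlap, and its wildtype log2 fold change was -0.24 ± 0.09. Its paralog Kmt2d read 6.07 to 6.17 in deficient air and 6.05 to 6.15 in deficient ozone, and was not called there (adjusted p = 0.984). In wildtype lung Kmt2d read 6.02, 5.94, 6.14 and 6.14 in air and 6.37, 6.28, 6.33 and 6.15 in ozone, a log2 fold change of 0.22 ± 0.06. Setdb1, which silences repeats through lysine 9 of histone H3, was not called in deficient lung (adjusted p = 0.971). Setd3, an actin histidine methyltransferase despite its name, was not called either (0.05 ± 0.06, adjusted p = 0.56). Setd2 and Kdm6b had no probe set with 1 symbol in the table used and were not analysed here.

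Chdh, the spelling match, read 5.76, 5.48, 6.07 and 6.21 in deficient lung after air and 5.28, 5.34, 5.65 and 5.59 after ozone and fell by 0.42 ± 0.12 (adjusted p = 0.0128) with overlapping groups. The call was lost without a sex term (-0.42, adjusted p = 0.103). It is 1 of the 15 members that fell.

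For 28 members the array carries several probe sets, which need not read the same part of the transcript, and their positions were not analysed here. Of the 94 member probe sets tested singly in deficient lung, 12 rose (12.8%, against 14.8% of all 20380 probe sets) and 25 fell (26.6%, against 15.5%). The 25 hold 4 probe sets of Atrx and that of Kdm5a, whose wildtype falls proposed the family. Probe sets of 1 gene are also not separate members, so these shares are no independent evidence on the family. Among the 28 genes, the probe sets were all called the same way for 2, some were called in 1 direction for 16, none was called for 9, and for 1, Chd4, they were called in opposite directions. Atrx has 5 probe sets. Taken from the brightest to the dimmest, their log2 fold changes in deficient lung were -1.23 ± 0.19, -1.31 ± 0.20, -0.56 ± 0.09, -0.51 ± 0.15 and -0.08 ± 0.08. The first 4 fell (adjusted p = 0.000242, 0.000231, 0.000212 and 0.0162 over single probe sets), and the dimmest was not called (adjusted p = 0.488). The mean of all 5 fell by 0.74 (adjusted p = 9.69e-05).

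Chd4 gave 0.26 ± 0.09 on its brightest probe set in deficient lung, -0.63 ± 0.15 on the second (adjusted p = 0.00509) and -0.27 ± 0.11 on the third. In wildtype lung the same 3 read 0.11 ± 0.09, -0.90 ± 0.15 and -0.51 ± 0.11. Whether Chd4 rose or fell after ozone therefore depends on the probe set. A brightest probe set that was not called stood beside a dimmer one that fell in deficient lung for 4 members, Smarca2, Smarca5, Smarce1 and Kmt2a. Their dimmer probe sets were at -0.56 ± 0.14, -0.34 ± 0.11, -0.33 ± 0.10 and -0.48 ± 0.14 (adjusted p = 0.00656, 0.0254, 0.0174 and 0.0153). The dimmer probe sets of Smarcd2 and Arid1a rose instead, by 0.18 ± 0.06 and 0.25 ± 0.08 for Smarcd2 and 0.33 ± 0.08 for Arid1a, where the brightest was not called. Detection calls were not used here. The signal of the dimmer probe sets, and of members with low levels such as Chd7 and Smarca1, relative to background is therefore unknown.

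**Figure D3:**
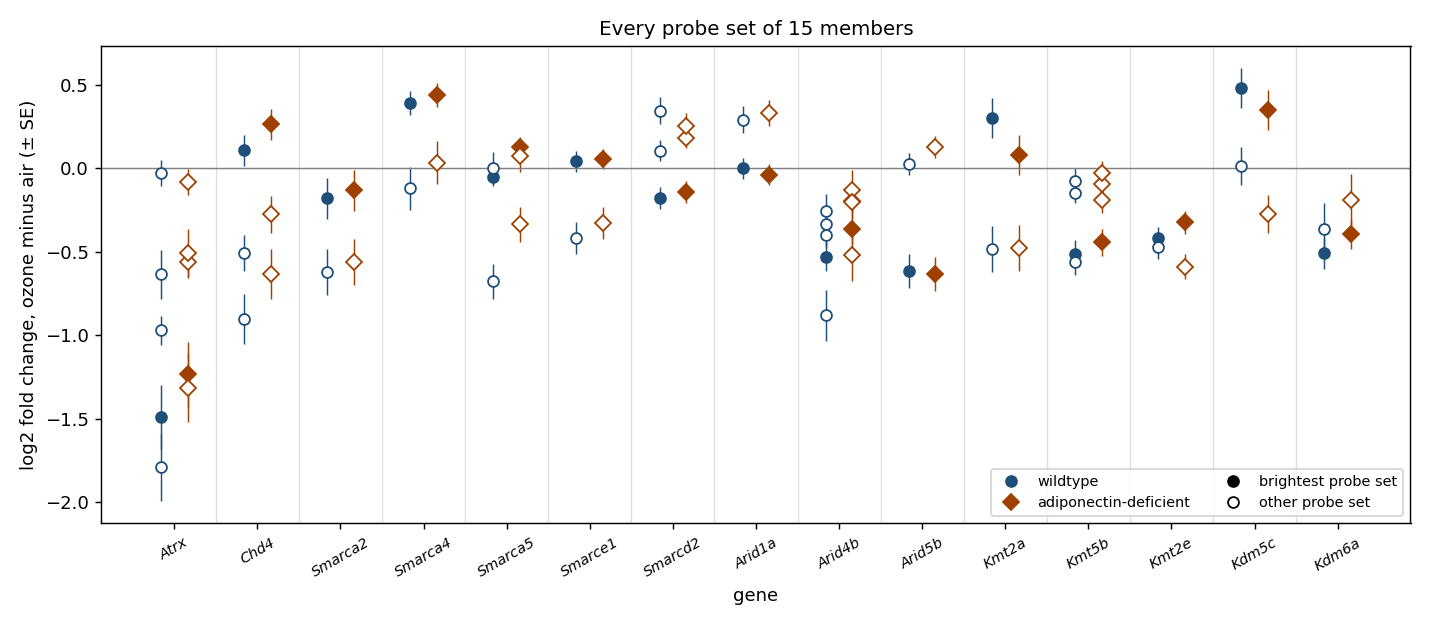
Log2 fold change after ozone (vertical axis, ± SE) of every probe set of 15 members in wildtype (blue circles) and deficient lung (orange diamonds), with the brightest probe set of each gene filled. The 5 Atrx probe sets span -1.31 to -0.08 in deficient lung, and those of Chd4 lie on both sides of 0.

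Adiponectin deficiency was compared with the wild type at each exposure, which asks whether the hormone alters these genes. By limma, 0 of the 52 members were called in room air, where 0.00807% of all genes were called, and 0 after ozone, where 0.0161% were. The ozone response differed by genotype for 0 members, and 0.0% of all genes were called in that interaction. At an unadjusted p under 0.05 there was 1 member in air (5.91% of all genes), 5 after ozone (11.2%) and 2 in the interaction (4.88%). The smallest adjusted p of a member was 0.762 in air, 0.333 after ozone and 0.983 in the interaction. The largest member differences were 0.21 in air, -0.27 after ozone and 0.26 in the interaction.

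The members nearest to a call were Chd1l and Setd3 in air, and Kmt2d and Kdm1a after ozone. Chd1l read 8.01, 8.06, 8.23 and 8.38 in wildtype air against 8.37, 8.30, 8.47 and 8.32 in deficient air, a difference of 0.20 ± 0.07 (limma, adjusted p = 0.762). Kmt2d read 6.37, 6.28, 6.33 and 6.15 in wildtype ozone against 6.05, 6.15, 6.11 and 6.13 in deficient ozone, a difference of -0.17 ± 0.06 (adjusted p = 0.333). Its interaction was -0.22 ± 0.09 (adjusted p = 0.983), so the wildtype value of Kmt2d was not shown to differ from the deficient value. Smarca5 had an interaction of 0.18 ± 0.08 (adjusted p = 0.983), from -0.05 ± 0.06 in wildtype and 0.13 ± 0.06 in deficient lung.

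Sex was compared over 8 female and 8 male arrays. RNA state differed between them: the 3′ minus 5′ difference of the Actb control probe sets was 0.41 to 0.62 in females and 0.27 to 0.49 in males. Within every group both females read above both males. That of Gapdh was -0.05 to 0.41 in females and -0.09 to 0.12 in males. The part of this in the sex differences was not tested. An unadjusted limma p under 0.05 was reached by 20 of the 52, a larger share than the 20.9% of all genes. In females 4 members were called higher (7.69%, against 3.11% of all genes) and 0 lower (against 2.55%). The 4 were Kdm6a, Kdm5c, Smarca1 and Chdh, of which the first 3 lie on the X chromosome. Kdm6a and Kdm5c are known to escape X inactivation. Kdm6a ranged from 9.07 to 9.87, median 9.44, in females and from 8.36 to 9.01, median 8.61, in males, with no overlap. Females exceeded males by 0.78 ± 0.06 (adjusted p = 1.32e-05), and the dimmer Kdm6a probe set gave 0.86 ± 0.11 (adjusted p = 0.000574).

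Kdm5c ranged from 6.07 to 6.98, median 6.44, in females and from 5.64 to 6.21, median 5.98, in males, with a small overlap. The difference was 0.52 ± 0.08 (adjusted p = 0.00299), and on the dimmer probe set 0.03 ± 0.08 (adjusted p = 0.859). Smarca1, the ISWI motor SNF2L, ranged from 4.76 to 5.12, median 4.92, in females and from 4.52 to 4.84, median 4.73, in males, where the sexes overlapped. Its difference of 0.23 ± 0.06 (adjusted p = 0.0391) was lost on leaving out any 1 array (adjusted p = 0.0551 to 0.0749) except wildtype ozone M1 and deficient ozone M2 and F1, and without the 3 mixed-tissue arrays (0.21, adjusted p = 0.126). Chdh was higher in females by 0.39 ± 0.08 (adjusted p = 0.0135), with the highest values on the 4 female air arrays. Atrx, also X-linked, was not called between the sexes (0.23 ± 0.14, adjusted p = 0.36) unless deficient ozone F2 was left out (0.36, adjusted p = 0.0392). Kdm7a, a demethylase of lysines 9 and 27 of histone H3, ranged from 5.14 to 5.55, median 5.36, in females and from 5.17 to 6.25, median 5.78, in males and was not called (-0.42 ± 0.12, adjusted p = 0.0535). It was called lower in females without wildtype ozone M1 (-0.52, adjusted p = 0.00761) or wildtype ozone F1 (-0.47, adjusted p = 0.0474), and with the dimmest genes left out (adjusted p = 0.0456). The Y-linked Kdm5d read 5.46 to 6.39 on male and 3.82 to 4.12 on female arrays, as the sex labels have it.

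**Figure D4:**
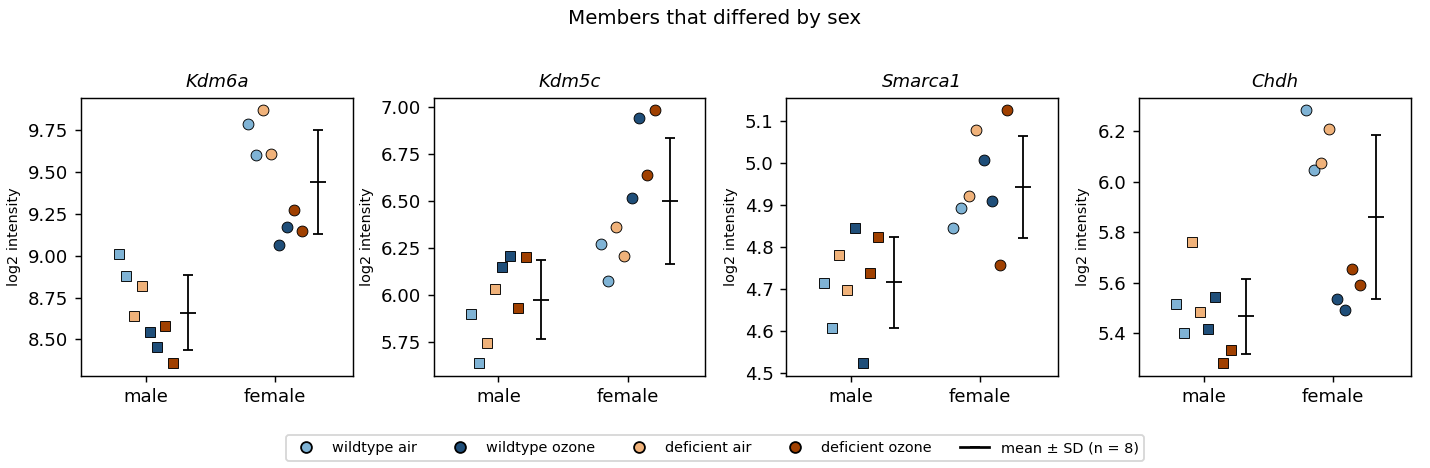
Log2 intensity (vertical axis, a separate scale for each gene) of the 4 members called between the sexes, by sex (horizontal axis), with colours for the 4 groups and bars for the mean ± SD (n = 8). Kdm6a shows no overlap between 8.36 to 9.01 in males and 9.07 to 9.87 in females.

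Related chromatin genes outside the family were counted in the same fit, in which 15.8% of all genes rose and 14.6% fell in deficient lung. Of 31 other genes of remodelling complexes measured of 35 listed, 8 rose, 5 fell and 18 were not called in deficient lung, with a median of 0.04 against 0.01 for all genes. Hells, a remodeller needed for DNA methylation and high in dividing cells, rose by 1.52 ± 0.10 (adjusted p = 7.09e-08). Mta2, a NuRD subunit, rose by 0.74 ± 0.08 (adjusted p = 1.01e-05) while Baz2b, which reads acetylated histones, fell by 0.53 ± 0.08 (adjusted p = 0.000121). Of 48 further symbols listed for histone methylation genes, some of them older names of members or of genes also listed, 30 were measured. Of these 30 genes 6 rose and 6 fell, against 15.8% and 14.6% of all genes, and 18 were not called. In the Polycomb complex that methylates lysine 27 of histone H3, the enzyme Ezh2 rose by 0.73 ± 0.10 (adjusted p = 9.99e-05) and its partner Suz12 fell by 0.46 ± 0.07 (adjusted p = 0.000112). Jmjd1c, a relative of Kdm3a, fell by 0.69 ± 0.10 (adjusted p = 0.000159).

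Of 18 histone acetylation genes of 26 listed, 4 rose and 4 fell, again against 15.8% and 14.6% of all genes, and 10 were not called. The acetyltransferases Kat6b and Kat2b fell by 0.58 ± 0.07 (adjusted p = 5.08e-05) and 0.37 ± 0.05 (adjusted p = 0.000121), and the cytoplasmic deacetylase Hdac6 rose by 0.44 ± 0.07 (adjusted p = 0.000215). Of 8 DNA methylation genes of 11 listed, 3 rose, 0 fell and 5 were not called, against the same shares. Uhrf1, which brings Dnmt1 to newly copied DNA, rose by 2.29 ± 0.12 (adjusted p = 8.14e-09), Dnmt1 itself by 0.66 ± 0.09 (adjusted p = 5.06e-05) and Tet1, which oxidises methylcytosine, by 0.26 ± 0.09 (adjusted p = 0.0459). In wildtype lung, where 19.6% of all genes were higher and 17.1% lower, these lists had 8 higher and 7 lower, 6 and 8, 2 and 6, and 2 and 1.

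Other measures moved with ozone beside these results. All 8 dividing-cell markers measured, of 9 listed, rose in both genotypes, and their mean level was 6.66 to 6.90 on air and 8.87 to 9.47 on ozone arrays. Of the T and NK cell markers 5 of 7 were lower in wildtype lung, and 2 fell and 1 rose in deficient lung. Of 4 B cell markers 2 were lower in wildtype lung and 2 fell in deficient lung, where Ms4a1 fell by 1.23 ± 0.44 (adjusted p = 0.0453). Of 6 macrophage markers Siglecf, of alveolar macrophages, was lower in wildtype lung and fell by 0.78 ± 0.16 (adjusted p = 0.00205) in deficient lung, and no other was called. Of 6 endothelial markers Epas1 and Tek were lower in wildtype lung, and in deficient lung both fell while Cdh5 and Cldn5 rose. Epas1 fell by 1.52 ± 0.11 (adjusted p = 2.3e-07) in deficient lung, and over both genotypes it read 10.32 to 11.20 on air and 8.72 to 9.31 on ozone arrays. Of 7 lung epithelial markers Ager and Aqp5 were higher in wildtype lung and Ager and Sftpb rose in deficient lung, and of 6 squamous markers Sprr1a was higher in both. Of 5 fat markers 1 fell in deficient lung, and 0 muscle or neutrophil markers were called in either genotype. The nuclear noncoding RNA Malat1 read 11.79 to 12.99 on air and 10.04 to 11.62 on ozone arrays and fell by 1.55 ± 0.25 (adjusted p = 0.000283) in deficient lung. Neat1, also a nuclear noncoding RNA, overlapped, at 11.12 to 12.01 on air and 10.91 to 11.68 on ozone arrays, and was not called in deficient lung. Meg3, another noncoding RNA, fell by 0.52 ± 0.13 (adjusted p = 0.00696) in deficient lung and stood at -0.09 ± 0.13 in wildtype lung. The 3′ minus 5′ difference of the Actb control probe sets, a sign of RNA breakage, was 0.27 to 0.62 in air and 0.28 to 0.61 in ozone. That of Gapdh was -0.09 to 0.26 and 0.03 to 0.41. The part of cell makeup or RNA state in the members' changes was not tested.

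Members are long genes: their median length in RefSeq (GRCm38.p6) was 61128 bp, against 20137 bp for all genes. Across the 52 members longer genes had lower log2 fold changes in deficient lung, with Pearson's r of -0.435 and Spearman's rho of -0.465 between the log of length and the change. Across 12375 genes with a length the values were -0.162 and -0.207. Genes share the arrays and are not independent replicates, so these correlations carry no test.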

How the data were processed

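Per the labels' protocols, biotin-labelled RNA of 16 left lungs, 1 per mouse, was read on Affymetrix arrays. Probe set values were deposited as intensity on a linear scale, made with RMA (background correction, normalization between arrays and a summary over probes) per the submitters' processing notes; the sources used here give no version. Here log2 was taken. Of 22690 probe sets, 64 controls, 691 with several symbols and 1555 with none were left out, which left 20380 for 12393 genes. The annotation can be old.

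All arrays were fitted with limma 3.58.1 in R 4.3.3 (lmFit, eBayes) with the 4 groups and sex as terms, after the method was tested on simulated data. Groups and sex came from the labels. Genes called had a Benjamini-Hochberg adjusted p under 0.05. Tables and figures were made with pandas 2.3.3 and matplotlib 3.10.9 in Python 3.11.15.

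The members, the lists of related genes and markers and the alternatives were chosen with earlier results of these data known. Named genes were Atrx and Kdm5a, up to 8 of the largest falls and of the largest rises called in deficient lung without overlap, members called (or the 2 of smallest p) for genotype, interaction and sex, members with probe sets called in opposite directions, and 9 fixed enzymes. To these came the 3 genes of smallest p per related list; Chd6, Kmt5a, Smarce1, Kmt2a, Arid1a and Kdm7a were given values after these were seen, and other members are named only to say who is in a count. Alternatives were a second quantile normalization, a common median, omission of the dimmest 20% of genes, the average over a gene's probe sets, limma's trend and robust options, array weights, a threshold of 0.01, no sex term, the replicate block, only the groups compared, and arrays left out.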

Additional observations from a re-analysis of the deposited data

Results flagged for a closer look

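Over the 26 named genes in the 4 groups, 104 sets of 4 arrays were screened for an array far from the other 3, and 2 were found, where chance alone marks about 1 in 20. Kmt2c, a histone methyltransferase of enhancers, read 8.31 on deficient air F1 against 8.01 to 8.05 on the other 3 arrays of that group. Setd3, an actin methyltransferase, read 10.21 on wildtype air M2 against 9.97 to 10.004 on the others. The cause was not tested.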

How the results depend on the processing

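Members called after ozone numbered 27 in wildtype lung and 18 to 29 under the alternatives, and 23 in deficient lung and 18 to 25. Leaving out 1 array gave 20 to 27, 21 to 24 and, for sex (4 called), 3 to 5; genotype stayed at 0 under every alternative run, and so did the interaction, which was not refitted on only the groups compared. The sex counts without wildtype ozone M1 or F1 and with the dimmest genes left out include Kdm7a, lower in females. At a threshold of 0.01 the sex count was 2. With the replicate block in place of sex, 27 and 22 were called. Of 24 same-number pairs 2 correlated above 0.1 (median -0.10). Group and sex means had been taken off first, which pulls these correlations down. They therefore cannot decide whether the numbers pair the mice. The mean of all probe sets turned Chd4 to -0.43 in wildtype and -0.21 in deficient lung, Smarcd2 to 0.091 and Smarce1 to -0.19 in wildtype lung, and gave 5 higher and 16 lower in deficient lung, against 8 and 15; the cause was not tested. Scaling moved the median of all genes to at most 0.07. Without the 3 mixed-tissue arrays 27 were called in wildtype and 22 in deficient lung. Without wildtype ozone F1, an array of the wildtype comparison, 25 were called in wildtype and 23 in deficient lung. Over all members, comparisons and alternatives except the threshold of 0.01, 107 values lost a call and 39 gained one. A further 4 values, called in either fit, changed sign. The other 8054 kept their side of the threshold. Changes of sign among values called in neither fit were not counted. Signal over background is unknown here.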
